A study of Mus musculus with 2 samples.

Results

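The genes of the PI3K, AKT and mTORC1 pathway were followed in RNA-seq counts of the RAW264.7 line, leukaemic mouse cells of the monocyte and macrophage lineage. The set holds 38 genes that were listed by symbol, and all 38 had a row among the 56791 genes of the deposited count table. One culture received a preparation that the labels name FAPD10-exos, at 10000000 particles, together with mouse recombinant IL-4 (20 ng) over 24 h. Its library is called the treated library here. The other received IL-4 in the same way with vehicle, as the treatment text is read here, so both libraries come from wild-type cells under the cytokine that induces M2 polarization and no culture without IL-4 is part of the comparison. Each group held 1 library. The treated library had 37196241 counts and the vehicle library 36152743. No difference given here therefore has a replicate check, no p-value was computed, and every statement is about these 2 libraries. What FAPD10-exos is beyond its name is not given in the labels, and the line is a single transformed line.

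PI3K enzymes phosphorylate a membrane lipid, and the product brings the kinases PDK1 and AKT to the membrane, where AKT is activated. AKT inhibits the TSC complex, which otherwise keeps the small GTPase RHEB inactive, and RHEB switches on mTORC1, the kinase complex that promotes translation and growth. Amino acids reach the same complex through the RAG GTPases, which the Ragulator scaffold holds on the lysosome and which GATOR1 and folliculin control. In macrophages the pathway lies downstream of growth factor, cytokine and Toll-like receptors, and it acts largely through phosphorylation, which RNA counts do not measure.

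Markers of macrophages were present in both libraries. All 10 fixed macrophage markers, among them Lyz2, Csf1r, Itgam and Cd68, were measured, with levels that summed to 2229 CPM (treated) and 2432 CPM (vehicle). CPM is a gene's count scaled to an effective library of 1000000 counts, and a gene was called measured when the mean of both libraries was at least 1 CPM. Of 27 markers of T cells, B cells, fibroblasts, endothelium, epithelium and skeletal muscle, 0 were measured and 15 had 0 counts in both libraries, with sums of 52 counts (treated) and 32 counts (vehicle), of which Pecam1 had 24 (FAPD10-exos) and 6 (vehicle). Within the macrophage list Adgre1, a surface receptor of mature macrophages, had 247 counts after FAPD10-exos and 90 after vehicle, a ratio of 2.91, and Spi1 one of 1.60, and Ptprc one of 0.643. Their part in the values below was not tested, and in bulk RNA fewer cells of a kind and less RNA per cell cannot be told apart.

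Promoter sequence is shown for 6 members, chosen because 4 of them carry the E-box that TFEB and TFE3, transcription factors held back by mTORC1, are known to bind in lysosomal genes, and because Pik3ap1 and Nprl2 kept the call of lower and of higher under each length setting described below. The windows run from 250 bases before to 50 after the gene start, 5′ to 3′ on the strand of the gene, and come from RefSeq on GRCm38.p6. Capitals mark CACGTG and, where present, its extension TCACGTG, which contains it, on either strand.
Lamtor1, chr7:101905587-101905886, plus strand: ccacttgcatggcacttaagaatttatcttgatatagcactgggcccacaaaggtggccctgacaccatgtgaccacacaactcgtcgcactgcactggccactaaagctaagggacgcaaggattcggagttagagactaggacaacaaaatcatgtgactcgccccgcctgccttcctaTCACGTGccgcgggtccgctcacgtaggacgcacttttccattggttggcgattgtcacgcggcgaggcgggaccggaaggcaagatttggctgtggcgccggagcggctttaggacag
Lamtor4, chr5:138255232-138255531, plus strand: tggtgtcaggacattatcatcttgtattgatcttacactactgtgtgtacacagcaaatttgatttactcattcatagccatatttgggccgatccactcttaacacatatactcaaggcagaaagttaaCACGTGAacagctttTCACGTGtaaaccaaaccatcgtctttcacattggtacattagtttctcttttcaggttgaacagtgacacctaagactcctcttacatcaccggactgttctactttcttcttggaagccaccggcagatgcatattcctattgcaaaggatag
Rragc, chr4:123917183-123917482, plus strand: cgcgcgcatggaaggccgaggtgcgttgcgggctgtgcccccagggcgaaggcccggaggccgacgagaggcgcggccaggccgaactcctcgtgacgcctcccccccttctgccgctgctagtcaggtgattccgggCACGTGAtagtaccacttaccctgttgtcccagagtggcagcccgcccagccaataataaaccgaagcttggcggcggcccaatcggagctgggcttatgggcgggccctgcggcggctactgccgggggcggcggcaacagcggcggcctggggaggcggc
Rheb, chr5:24842312-24842611, minus strand: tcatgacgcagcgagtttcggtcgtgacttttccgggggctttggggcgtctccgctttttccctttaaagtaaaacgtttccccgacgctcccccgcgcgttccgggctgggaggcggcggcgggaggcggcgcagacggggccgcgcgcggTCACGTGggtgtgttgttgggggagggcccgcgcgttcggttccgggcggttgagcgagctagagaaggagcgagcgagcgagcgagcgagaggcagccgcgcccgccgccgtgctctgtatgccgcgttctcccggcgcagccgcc
Pik3ap1, chr19:41385053-41385352, minus strand: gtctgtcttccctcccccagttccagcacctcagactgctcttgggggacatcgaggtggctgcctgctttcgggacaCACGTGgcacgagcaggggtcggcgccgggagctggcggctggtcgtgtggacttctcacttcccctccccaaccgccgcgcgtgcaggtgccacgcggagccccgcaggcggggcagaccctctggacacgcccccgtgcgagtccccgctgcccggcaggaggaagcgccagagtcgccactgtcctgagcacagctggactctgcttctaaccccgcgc
Nprl2, chr9:107541959-107542258, plus strand: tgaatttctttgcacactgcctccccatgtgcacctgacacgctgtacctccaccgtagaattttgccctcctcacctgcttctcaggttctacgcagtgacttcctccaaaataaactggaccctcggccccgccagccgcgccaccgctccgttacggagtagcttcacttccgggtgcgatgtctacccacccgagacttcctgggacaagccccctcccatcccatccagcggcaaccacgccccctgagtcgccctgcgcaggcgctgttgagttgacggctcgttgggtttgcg

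Windows were matched by symbol for 35 members, and Deptor, Lamtor3 and Rps6kb2 had none. TCACGTG stood in the window of 4 of the 35 members, Lamtor1, Lamtor4, Rragc and Rheb, against 4.29% of 27025 genes with a window. CACGTG stood in those 4 and in Pik3ap1, against 8.09% of all genes. The FOXO motif GTAAACA stood in windows of Akt1, Mapkap1 and Pik3cg, against 4.05% of all genes. The match began 69 bases before the start in Lamtor1, 97 in Rheb and 112 in Rragc, and Lamtor4 held 2 matches. Of the 4 members with TCACGTG, Lamtor1 was called higher in the treated library, by the rule given in the next paragraph, with a ratio of 1.56, and Lamtor4, Rheb and Rragc were not called, with ratios of 1.27, 1.32 and 0.703. The matches are a description of letters, and binding was not measured.

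As a set, more members were called lower than higher in the treated library. Of the 38 genes, 37 had a count and 36 were measured, and Foxo1 and Rragd did not pass that filter. A gene was called higher or lower when the ratio of its scaled counts, treated over vehicle, was at least 1.5-fold with a 95% counting interval that excluded 1. By that rule 3 members were higher, 10 were lower and 23 were neither. Called higher were 8.33% of measured members against 17.1% of all 12264 measured genes, and called lower were 27.8% against 19.8% of all measured genes. The median log2 ratio of the members was -0.24, beside 0.01 for all measured genes. Under scaling by total counts 2 members were higher and 14 lower. That scaling moved the median of all measured genes by -0.13, and no share of all genes called was computed for it. The intervals, given in parentheses after ratios, cover counting error only, and the same 3 and 10 genes were called with counts halved, to allow for both ends of read pairs having been counted, against 16.2% called higher and 18.7% called lower among all measured genes. The printed intervals use unhalved counts and are too narrow if both ends were counted. With counts halved, member intervals wholly below 1 fell from 22 to 21, and those wholly above from 7 to 6. Among all 12264 measured genes they fell from 4493 to 3953 and from 4578 to 3976.

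**Figure D1:**
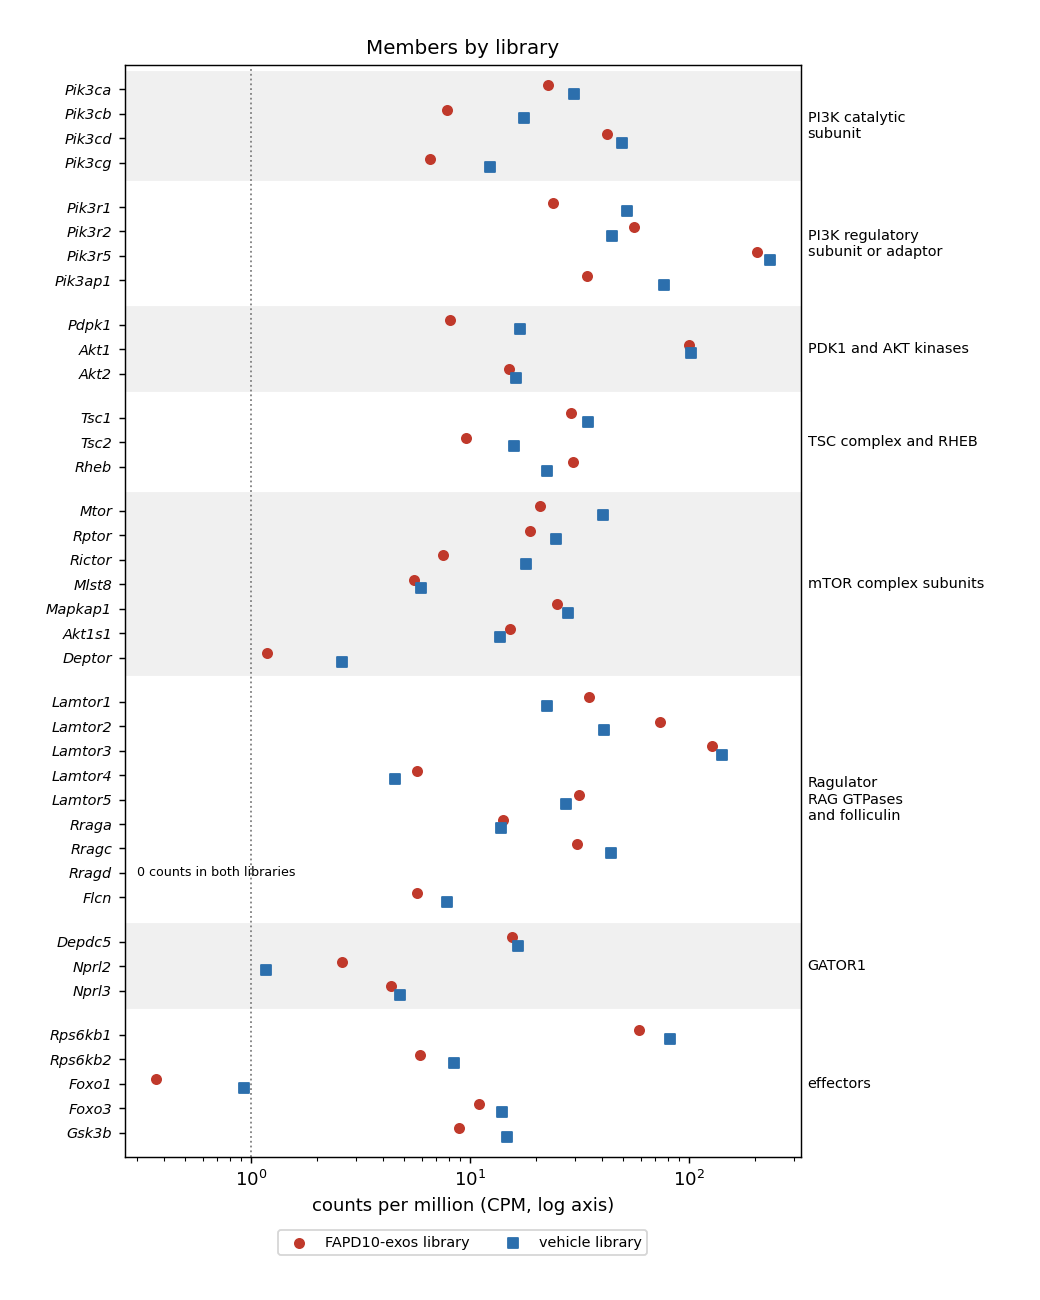
Level of each member in CPM on a log axis, with the treated library as circles and the vehicle library as squares, 1 library each, grouped by role; the dotted line marks 1 CPM. The lower values of the treated library stand out for Pik3cb, Pik3r1, Pik3ap1, Pdpk1, Mtor and Rictor, and its higher values for Lamtor1, Lamtor2 and Nprl2.

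The measured members had a longer median exon length than all measured genes, and the ratio moved with length over all genes. Over 12264 measured genes, Spearman's rho between exon length in the count table and the log2 ratio was -0.45, and over the 36 measured members it was -0.65, a description across genes of the same 2 libraries. The shortest of 10 equal bins, of 57 to 1030 nt, was centred on a log2 ratio of 0.44, and the longest, from 9479 nt upward, on -0.62. The median exon length was 6695 nt for the measured members and 4014 nt for all measured genes, and 9 members lay in the longest bin. After a running median of the ratio over exon length was subtracted, 2 members were at least 1.5-fold higher and 5 lower, which is 5.56% and 13.9% of the 36, against 12.2% and 16.3% of all measured genes, and the member median was -0.10. With the length of the principal GENCODE transcript in place of exon length, 2 were higher and 3 lower, 5.56% and 8.33%, against 10.2% and 12.1% of 9975 genes, and the median was -0.13. Values after these corrections are given below in log2 with the exon-length value first.

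**Figure D2:**
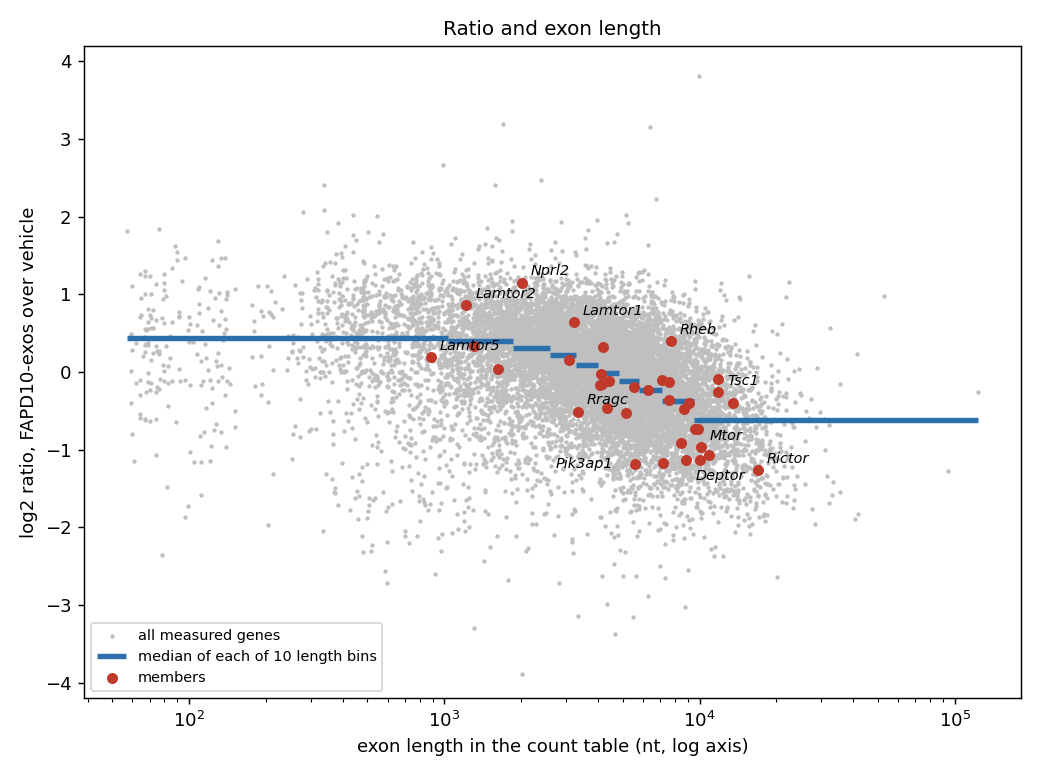
Log2 ratio of treated over vehicle against exon length in nt on a log axis; grey points are all measured genes with a count in both libraries, red points the members, and blue bars the median of each of 10 length bins. Pik3ap1 lies below and Nprl2 above the bin medians of their length. Mtor and Rictor lie in the longest bin, below its median of -0.62.

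Among the class I catalytic subunits, the lipid kinases themselves, all 4 ratios and their intervals lay below 1, and 2 of the 4 were called lower. Of all measured genes, 36.6% had an interval wholly below 1 and 19.8% were called lower. Pik3cb, the beta isoform, had 278 counts (7.81 CPM) after FAPD10-exos and 664 counts (17.6 CPM) after vehicle, a ratio of 0.445 (0.385 to 0.512). Pik3cg, the gamma isoform that acts downstream of G-protein-coupled receptors, had 234 counts after FAPD10-exos and 467 after vehicle, a ratio of 0.532 (0.453 to 0.624). Pik3ca, the ubiquitous alpha isoform, had 806 counts after FAPD10-exos and 1123 after vehicle, a ratio of 0.762 (0.695 to 0.835), and Pik3cd, the delta isoform of leukocytes, had 1504 counts after FAPD10-exos and 1871 after vehicle, a ratio of 0.854 (0.797 to 0.914). Neither of that pair reached the 1.5-fold threshold. Per kilobase of exon, Pik3cd had the highest level of the 4 in both libraries, at 6.75 CPM with FAPD10-exos and 7.91 CPM with vehicle. After FAPD10-exos it was followed by Pik3ca at 2.49, Pik3cb at 1.09 and Pik3cg at 0.780 CPM per kilobase, and after vehicle by the same genes in the same order at 3.27, 2.44 and 1.47. Pik3cd made up 60.8% of the summed level per kilobase after FAPD10-exos and 52.4% after vehicle. After the length corrections Pik3cb stood at -0.86 and -0.57, Pik3cg at -0.47 and -0.41, Pik3cd at -0.02 and 0.09, and Pik3ca at 0.07 and 0.47. Pik3cb thus remained past 1.5-fold by exon length only.

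The regulatory subunits and adaptors were split by gene. Pik3ap1, which encodes the adaptor BCAP that links Toll-like and B-cell receptors to PI3K, had 1209 counts (34.0 CPM) after FAPD10-exos and 2914 counts (77.1 CPM) after vehicle, a ratio of 0.441 (0.412 to 0.471). It stood at -0.98 and -0.90 after the length corrections and was called lower under each of them. Pik3r1, the main regulatory subunit that stabilises and restrains the catalytic chain, had 849 counts after FAPD10-exos and 1973 after vehicle, a ratio of 0.457 (0.421 to 0.496), with corrected values of -0.67 and -0.50, the first of them past 1.5-fold. Pik3r2, a second subunit of the same family, lay the other way at 1984 counts after FAPD10-exos and 1685 after vehicle, a ratio of 1.25 (1.17 to 1.34) below the threshold. Per kilobase of exon, Pik3r1 stood at 2.37 CPM after FAPD10-exos and 5.18 CPM after vehicle, under Pik3r2 at 13.4 CPM after FAPD10-exos and 10.7 CPM after vehicle. Pik3r1 was 4.03% of the summed level per kilobase of the 4 genes after FAPD10-exos and 7.21% after vehicle, and Pik3r2 was 22.7% after FAPD10-exos and 14.9% after vehicle. Pik3r5, the partner of the gamma isoform, had the highest level per kilobase of the 4, with 7285 counts after FAPD10-exos and 8844 after vehicle and a ratio of 0.875 (0.848 to 0.903). In the deposited table, whose mouse build the sources used here do not give, Pik3ap1 spans 41260816 to 41373541 of chromosome 19 and Pik3r1 101817071 to 101904725 of chromosome 13, both on the minus strand.

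Of the kinases that carry the signal onward, Pdpk1 was called lower and the AKT members were not. Pdpk1, which encodes PDK1, had 287 counts (8.07 CPM) after FAPD10-exos and 640 counts (16.9 CPM) after vehicle, a ratio of 0.476 (0.413 to 0.548). Akt1 was nearly level at 3537 counts after FAPD10-exos and 3836 after vehicle, a ratio of 0.979 (0.935 to 1.03), and Akt2 had 535 counts after FAPD10-exos and 610 after vehicle, a ratio of 0.931 (0.828 to 1.05), so both intervals included 1. Per kilobase Akt1 stood at 24.3 CPM after FAPD10-exos and 24.8 CPM after vehicle, above Akt2 at 2.11 CPM after FAPD10-exos and 2.26 CPM after vehicle. Pdpk1 stood at -0.56 and -0.43 after the length corrections and no longer passed.

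Of the TSC complex and its target RHEB, Tsc2 was called lower, and Tsc1 and Rheb were not called. Tsc2, the part of the complex that inactivates RHEB, had 340 counts (9.56 CPM) after FAPD10-exos and 600 counts (15.9 CPM) after vehicle, a ratio of 0.602 (0.525 to 0.689). Its stabilising partner Tsc1 had 1024 counts after FAPD10-exos and 1297 after vehicle, a ratio of 0.839 (0.772 to 0.911). Rheb had 1049 counts after FAPD10-exos and 846 after vehicle, a ratio of 1.32 (1.20 to 1.44) below the threshold. After the length corrections Tsc2 stood at -0.28 and -0.20, Tsc1 at 0.32 and 0.46, and Rheb at 0.67 and 0.09. The exons of Rheb in the table sum to 7721 nt and its principal transcript has 1784 nt, and the call of higher for Rheb appeared with the exon length only.

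Of the 7 genes of the mTOR complexes, 3 (42.9%) were called lower and 0 higher, against 19.8% and 17.1% of all measured genes. Mtor, the kinase of both complexes, had 739 counts (20.8 CPM) after FAPD10-exos and 1531 counts (40.5 CPM) after vehicle, a ratio of 0.513 (0.469 to 0.560). Rictor, the scaffold that defines mTORC2, had 267 counts (7.50 CPM) after FAPD10-exos and 680 counts (18.0 CPM) after vehicle, a ratio of 0.417 (0.361 to 0.481), the lowest of the measured members. Rptor, the scaffold that defines mTORC1, had 670 counts after FAPD10-exos and 935 after vehicle, a ratio of 0.761 (0.688 to 0.841). Deptor, an inhibitor of both complexes, was scarce at 42 counts after FAPD10-exos and 98 after vehicle, with a ratio of 0.455 (0.309 to 0.660). The smaller subunits lay close to 1. Mapkap1, the mTORC2 subunit SIN1, had 884 counts after FAPD10-exos and 1057 after vehicle, a ratio of 0.888 (0.811 to 0.972). Mlst8, shared by both complexes, had 196 counts after FAPD10-exos and 226 after vehicle, a ratio of 0.921 (0.757 to 1.12), and Akt1s1, the mTORC1 inhibitor PRAS40, had 541 counts after FAPD10-exos and 516 after vehicle, a ratio of 1.11 (0.985 to 1.26). Of the exon length of Mlst8, 22.5% overlaps another gene, so its value is uncertain. After the length corrections Mtor stood at -0.50 and -0.14, Rictor at -0.42 and -0.38 and Deptor at -0.68 and -0.32, so of the 3 only Deptor, by exon length, was still past 1.5-fold. By exon length 14.3% of the 7 were thus lower, against 16.3% of all measured genes. By principal transcript 0 were lower, against 12.1% of 9975 genes.

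On the lysosomal arm, 2 of the 8 measured genes (25.0%) were called higher and 0 lower, against 17.1% and 19.8% of all measured genes. The median log2 ratio of the 8 was 0.11, or -0.01 with total counts as the scale, where 1 was higher and 2 were lower. This direction did not hold after the length corrections. By exon length 0 of the 8 were higher and 1 (12.5%) was lower, against 12.2% and 16.3% of all measured genes. By principal transcript 0 were higher and 2 (25.0%) lower, against 10.2% and 12.1% of 9975 genes. The medians were then -0.18 and -0.34. Lamtor2, a subunit of the Ragulator scaffold, had 2626 counts (73.8 CPM) after FAPD10-exos and 1535 counts (40.6 CPM) after vehicle, a ratio of 1.82 (1.71 to 1.94). Lamtor1, the lipid-anchored subunit that holds the scaffold on the membrane, had 1238 counts (34.8 CPM) after FAPD10-exos and 844 counts (22.3 CPM) after vehicle, a ratio of 1.56 (1.43 to 1.70), and it was not called under scaling by total counts. The remaining subunits stayed under the threshold. Lamtor4 had 204 counts after FAPD10-exos and 171 after vehicle, a ratio of 1.27 (1.03 to 1.56), and Lamtor5 had 1116 counts after FAPD10-exos and 1038 after vehicle, a ratio of 1.14 (1.05 to 1.24). Lamtor3, which pairs with Lamtor2, was at 0.902 (0.866 to 0.938) from 4510 counts after FAPD10-exos and 5313 after vehicle. Per kilobase of exon, Lamtor2 had the highest level of the subunits after FAPD10-exos, at 60.6 CPM beside 35.5 CPM for Lamtor5 and 30.5 CPM for Lamtor3. After vehicle Lamtor3, Lamtor2 and Lamtor5 lay close together, at 33.9, 33.3 and 31.1 CPM per kilobase. After the length corrections Lamtor2 stood at 0.45 and 0.21 and Lamtor1 at 0.42 and 0.10, neither past 1.5-fold. Lamtor3 then stood at -0.18 and -0.62, the second value past the threshold, Lamtor4 at -0.08 and -0.32 and Lamtor5 at -0.19 and -0.47.

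The RAG GTPases differed among themselves. Rraga, the RAG GTPase that binds mTORC1 when loaded with GTP, had 504 counts after FAPD10-exos and 522 after vehicle, a ratio of 1.03 (0.905 to 1.16). Rragc, its heterodimer partner, had 1097 counts after FAPD10-exos and 1658 after vehicle, a ratio of 0.703 (0.651 to 0.759), and passed the threshold after both length corrections, at -0.66 and -0.60, and under scaling by total counts. Rragd had 0 counts in both libraries, which allows up to 3 counts, or 0.0843 CPM with FAPD10-exos and 0.0794 CPM with vehicle. Flcn, the gene of folliculin, which acts on RAGC and RAGD, had 203 counts after FAPD10-exos and 297 after vehicle, a ratio of 0.726 (0.604 to 0.871).

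GATOR1, the complex that switches RAGA off when amino acids are scarce, held the member with the highest ratio. Nprl2, of the NPRL2 and NPRL3 pair that carries the GTPase-activating function, had 92 counts (2.59 CPM) after FAPD10-exos and 44 counts (1.16 CPM) after vehicle, a ratio of 2.22 (1.53 to 3.26). It stood at 0.78 and 0.74 after the length corrections and was called higher under each, at a level close to the filter of 1 CPM. The other subunits lay near 1. Depdc5, the subunit that contacts the RAG GTPases, had 551 counts after FAPD10-exos and 622 after vehicle, a ratio of 0.941 (0.837 to 1.06), and Nprl3 had 155 counts after FAPD10-exos and 180 after vehicle, a ratio of 0.915 (0.733 to 1.14). Depdc5 has a long transcript and stood at 0.48 and 0.66 after the length corrections, the second past the threshold. In the table Nprl2 spans 107419425 to 107422905 of chromosome 9, plus strand.

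Among the effectors, the 4 measured genes all had intervals below 1, as had 36.6% of all measured genes. Of the 4, Gsk3b was called lower (25.0%), against 19.8% of all measured genes. Under scaling by total counts 3 of the 4 were lower, and no share of all genes was computed for that setting. Gsk3b, a kinase that AKT inhibits, had 315 counts (8.85 CPM) after FAPD10-exos and 554 counts (14.7 CPM) after vehicle, a ratio of 0.604 (0.524 to 0.695). Rps6kb1, the S6 kinase that mTORC1 activates, had 2097 counts after FAPD10-exos and 3087 after vehicle, a ratio of 0.721 (0.682 to 0.763). Its paralog Rps6kb2 had 210 counts after FAPD10-exos and 320 after vehicle, a ratio of 0.697 (0.583 to 0.832), which is uncertain, since other genes cover 23.7% of its exons. Foxo3, a transcription factor that AKT keeps out of the nucleus, had a ratio of 0.783 (0.685 to 0.894) from 390 counts after FAPD10-exos and 529 after vehicle. Foxo1, of the same family, was below the filter with 13 counts after FAPD10-exos and 35 after vehicle, a ratio of 0.394 (0.192 to 0.764). After the length corrections Gsk3b stood at -0.28 and 0.062, Rps6kb1 at -0.02 in both, Rps6kb2 at -0.42 and -0.17, and Foxo3 at -0.07 and 0.27, and none of these was past 1.5-fold.

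**Figure D3:**
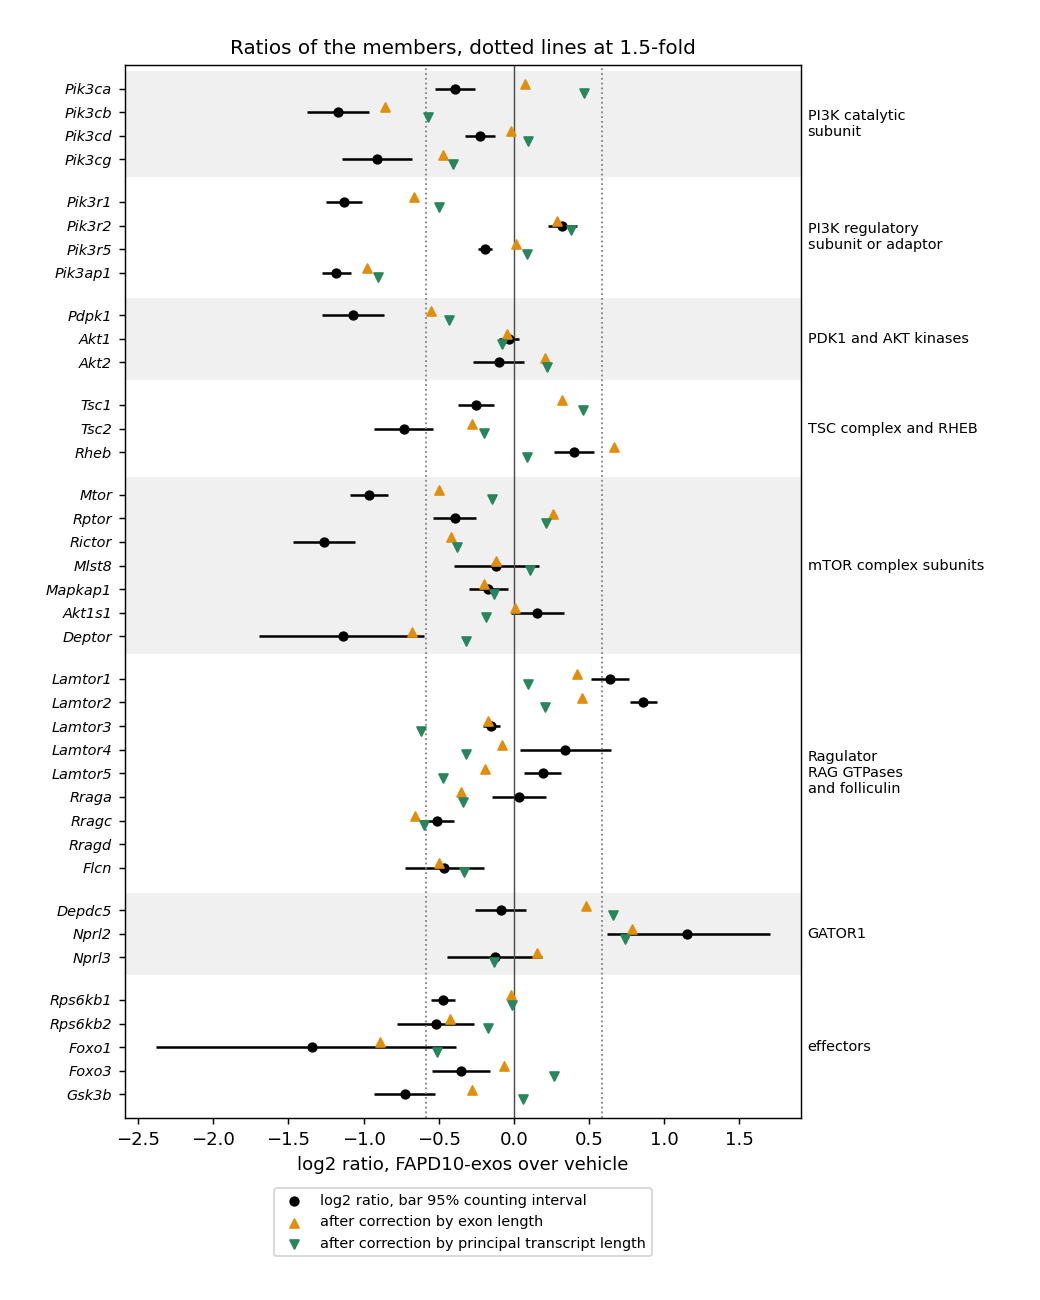
Log2 ratio of treated over vehicle for each member with its 95% counting interval, and the same ratio after correction by exon length (upward triangles) and by principal transcript length (downward triangles), 1 library per group; dotted lines mark 1.5-fold. Pik3ap1 at -1.18 and Nprl2 at 1.15 stay outside the dotted lines in all forms, and the ratios of Mtor, Rictor and Pdpk1 move inside after either correction.

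Other genes of the pathway, 94 in a list chosen for their roles, were also lower more often than higher. Of 78 measured, 20 (25.6%) were called lower and 2 (2.56%) higher, against 19.8% lower and 17.1% higher among all measured genes, and their median log2 ratio was -0.17. After correction by exon length 13 (16.7%) were lower and 5 (6.41%) higher, against 16.3% and 12.2% of all measured genes, and the median was 0.00. By principal transcript 9 (11.5%) were lower and 3 (3.85%) higher, against 12.1% and 10.2% of 9975 genes, with a median of 0.02. The lowest were the partners of folliculin. Fnip2 had 945 counts (26.6 CPM) after FAPD10-exos and 3225 counts (85.3 CPM) after vehicle, a ratio of 0.311 (0.289 to 0.335), and Fnip1 had 342 counts after FAPD10-exos and 1095 after vehicle, a ratio of 0.332 (0.293 to 0.375). They stayed past 1.5-fold after both corrections, Fnip2 at -1.23 and -1.47 and Fnip1 at -1.28 and -1.02. In the same group of 15 measured sensors and regulators, 4 (26.7%) were called lower and 0 higher, against 19.8% and 17.1% of all measured genes. The lysosomal arginine sensor Slc38a9 was among those called lower, with 114 counts after FAPD10-exos and 199 after vehicle, a ratio of 0.608. Other AKT and TSC pathway kinases and regulators, 11 measured genes, had a median log2 ratio above 0, at 0.15. Of these 11, 7 ratios lay above 1 and 4 below, and 1 (9.09%) was called lower and 0 higher. Their median was 0.09 by exon length and 0.06 by principal transcript.

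Closer to the receptor, the adaptor genes Gab2 and Cbl were both called lower. They were 2 of 6 measured genes of that role (33.3%), and 0 were higher, against 19.8% lower and 17.1% higher among all measured genes. Gab2 had 760 counts after FAPD10-exos and 1459 after vehicle, a ratio of 0.553 (0.506 to 0.604), and Cbl had 1105 after FAPD10-exos and 2042 after vehicle, a ratio of 0.575 (0.534 to 0.619). After the length corrections Gab2 stood at -0.66 and -0.30 and Cbl at -0.20 and 0.21. Irs2, an adaptor of the IL-4 and insulin receptors, and Igf1r, both named after their values were seen, had 0 counts in either library, and Irs1 had 0 after FAPD10-exos and 2 after vehicle. Of the other PI3K genes, Pik3c2a, a class II enzyme, Pik3r3 and Atg14, a subunit of the autophagy-linked class III complex, had ratios of 0.476 (0.419 to 0.540), 0.476 (0.376 to 0.600) and 0.540 (0.473 to 0.615), with 24.3% of the exon length of Pik3r3 in other genes. Of the 8 measured genes of that role 3 (37.5%) were called lower and 0 higher. After either length correction 2 (25.0%) were lower and 1 (12.5%) was higher. Among all genes 16.3% were lower and 12.2% higher by exon length, and 12.1% and 10.2% by principal transcript. Of the 12 measured genes of phosphatases that oppose the pathway, 4 were called lower, 0 higher and 8 neither, beside 19.8% lower among all measured genes. The 4 were Phlpp1 at 0.497 from 94 counts after FAPD10-exos and 201 after vehicle, Inpp4a at 0.518, Inppl1 at 0.611 (20.3% of its exon length in other genes) and Phlpp2 at 0.622. By exon length 1 of the 12, Phlpp1 at -0.73, was still lower and 1 was higher, with a median log2 ratio of -0.10. By principal transcript 0 were lower and 1 was higher, with a median of 0.02. Inpp5d, which encodes the lipid phosphatase SHIP1 of blood cells and was named after its values were seen, had 1164 counts after FAPD10-exos and 1832 after vehicle, a ratio of 0.675 (0.626 to 0.727) under the threshold. Of the assembly factors of the mTOR kinase, Tti1 was at 0.571 (0.481 to 0.675) and Ruvbl1 at 1.52 (1.48 to 1.56). Ruvbl1 was not called under scaling by total counts or by median of ratios, nor after either length correction, where it stood at 0.23 in both.

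Substrates of mTORC1 and AKT had a median log2 ratio of -0.06, or 0.01 under upper-quartile scaling. By the rule given above 5 of 21 (23.8%) were called lower and 1 (4.76%) higher, against 19.8% and 17.1% of all measured genes. By exon length 4 (19.0%) were lower, against 16.3% of all measured genes. By principal transcript 2 (9.52%) were lower, against 12.1% of 9975 genes, and 1 was higher after either correction. Larp1, a repressor of ribosomal protein mRNAs under mTORC1 control, had 3765 counts (105.8 CPM) after FAPD10-exos and 8598 counts (227.5 CPM) after vehicle, a ratio of 0.465 (0.447 to 0.483). Rps6, the ribosomal protein that S6 kinase phosphorylates, lay the other way at 74002 counts after FAPD10-exos and 41906 after vehicle, a ratio of 1.88 (1.85 to 1.90), which processed pseudogenes of that gene could share. Mitf, a relative of TFEB, was at 0.503 (0.463 to 0.545) and Tbc1d4, an AKT substrate in glucose uptake, at 0.540 (0.413 to 0.702). Mitf stayed past 1.5-fold after both length corrections, at -0.79 and -0.65, Larp1 and Tbc1d4 after the exon-length correction only, and Rps6 after neither.

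Known transcriptional targets of FOXO, TFEB and TFE3 showed no common direction. Of 28 listed, 23 were measured, of which 1 (4.35%) was called higher and 3 (13.0%) lower, against 17.1% and 19.8% of all measured genes. Under scaling by total counts 0 were higher and 5 lower, and under upper-quartile scaling 2 and 1. The median log2 ratio was 0.10, and -0.03 under scaling by total counts. Among FOXO targets Sod2, the mitochondrial superoxide dismutase, had 2275 counts after FAPD10-exos and 1543 after vehicle, a ratio of 1.57 (1.47 to 1.67) that was not called under scaling by total counts, and Bcl2l11, which encodes the death factor BIM, had 74 counts after FAPD10-exos and 119 after vehicle, a ratio of 0.660 (0.487 to 0.890), an interval that included 1 with counts halved. Among TFEB and TFE3 targets Hif1a, the hypoxia factor, had 2426 counts after FAPD10-exos and 5148 after vehicle, a ratio of 0.500 (0.477 to 0.525), and Gpnmb, a lysosomal glycoprotein, had 2673 counts after FAPD10-exos and 4347 after vehicle, a ratio of 0.653 (0.622 to 0.685). Sod2 and Hif1a stayed past 1.5-fold after both length corrections, at 1.11 and 1.15 and at -0.85 and -0.62.

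**Figure D4:**
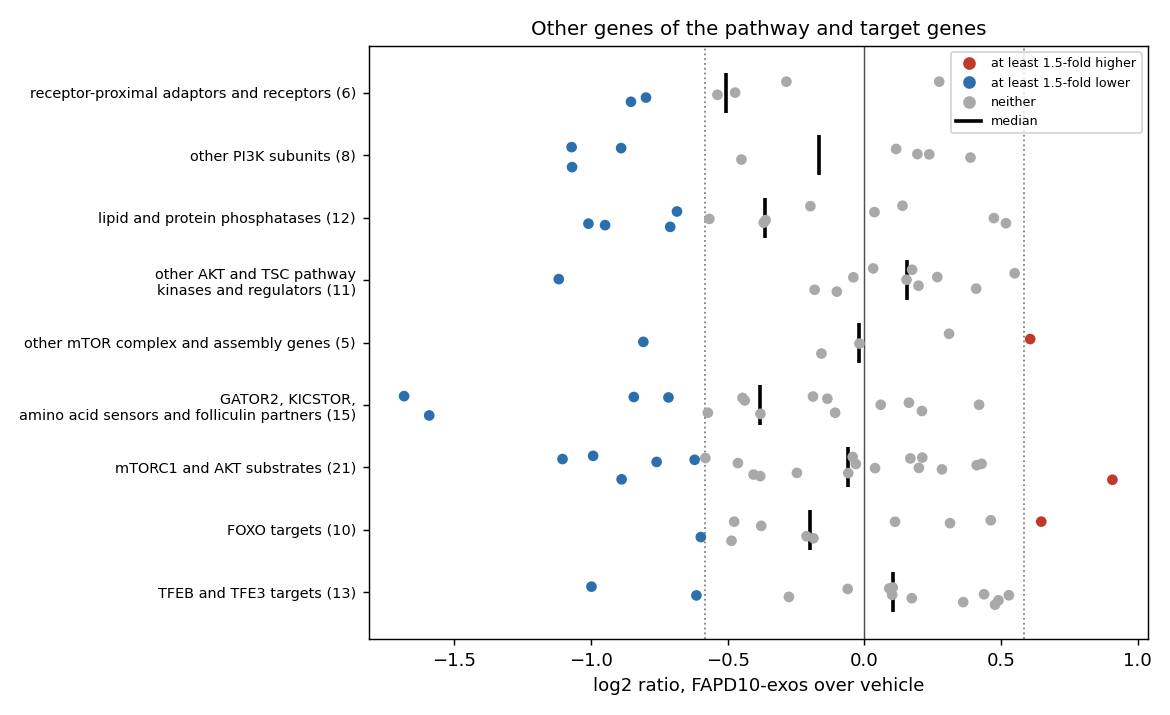
Log2 ratio of treated over vehicle for measured genes of the wider pathway list and of the target lists, by role with the number measured in parentheses; colours mark genes at least 1.5-fold higher or lower with an interval that excludes 1, and black bars mark medians. Fnip2 and Fnip1 lie farthest to the left, at -1.68 and -1.59, and Rps6 farthest to the right, at 0.91.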

How the data were processed

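The authors deposited 1 table of counts per gene for both libraries, whole numbers that were not normalised, with the summed exon length of each gene. The submitters' processing notes list fastp 0.23.4, STAR 2.5.3a, featureCounts and the human build GRCh38, while the symbols are mouse. Annotation, strand setting and treatment of multiply matching reads are not given in the sources used, so overlapping and antisense genes cannot be told apart. A gene that shares over 20% of its exon length is called uncertain. Totals were 37196241 (FAPD10-exos) and 36152743 (vehicle) counts, and 1 CPM corresponds to 35.6 and 37.8 counts.

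Counts were scaled by TMM (edgeR 4.0.16, R 4.3.3; factors 0.957 for FAPD10-exos, 1.05 for vehicle). With 1 library per group there are 0 residual degrees of freedom, so no test could be fitted. Ratios carry 95% intervals, converted from exact Clopper-Pearson limits on the share of a gene's counts that came from FAPD10-exos. Read pairs may have been counted at both ends, since 76.3% of counts from 1 to 50 were even with FAPD10-exos and 75.1% with vehicle. Length corrections subtracted a running median over 50 bins; that by GENCODE M21 principal transcript was chosen after seeing the data. Levels per kilobase divide CPM by exon length, which joins all transcripts of a gene and can understate the level. The members and lists were chosen with earlier results of these data known. All members are given values, and up to 4 called genes with at least 100 counts in total are named per role of the other lists, of which some are not reported here. Alternatives also used DESeq2 1.42.0. Python 3.11.15 was used with scipy 1.17.1, and the procedure was tested on simulated data.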

Additional observations from a re-analysis of the deposited data

How the results depend on the processing

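The members kept 3 higher and 10 lower genes under median of ratios, upper quartile, halved counts and 1 CPM added. At 2-fold there were 1 higher and 6 lower. After correction by exon length 5 were lower, with a median log2 ratio of -0.10, and after correction by principal transcript, chosen after seeing the data, 3 were lower, with a median of -0.13. Of all member calls, 8 were lost and 2 gained by exon length, and 11 were lost and 3 gained by principal transcript. Of the 3 lower by principal transcript, Rragc and Lamtor3 were not called without correction. Under that correction the log2 ratio of Gsk3b was reversed, at 0.062. Of the other pathway genes, 1 was higher under total counts, 1 under median of ratios, 4 under upper quartile and 5 after exon-length correction, while 13 of 78 were lower by exon length and 9 by principal transcript. With at least 10 CPM 12 of the 50 genes left were lower. At 2-fold 0 were higher and 7 lower, and with whole intervals beyond 1.5-fold 1 was higher and 12 lower. Their pooled log2 ratio was 0.20, and Rps6 holds 74002 of 211056 treated and 41906 of 194744 vehicle counts in it. Of the target genes, 0 were higher and 5 lower under total counts, 2 and 1 under upper quartile, 0 and 0 at 2-fold and 0 and 1 with whole intervals. By exon length 4 (17.4%) were higher and 2 (8.70%) lower, against 12.2% and 16.3% of all measured genes. By principal transcript 1 was higher and 1 lower, 4.35% each, against 10.2% and 12.1% of 9975 genes. The cause of these shifts was not tested. The share of all genes called was computed only for the main rule, for halved counts and for the length corrections. Counts under the other settings, such as 2-fold, whole intervals and 10 CPM, therefore have no share of all genes beside them. Scaling by total counts moved the median of all measured genes by -0.13, and other scalings by -0.04 and 0.07. No paired analysis was possible because each group has 1 library. A correction by protein length was not run. Depth limits Nprl2 (92 counts after FAPD10-exos, 44 after vehicle), Deptor (42 and 98) and Foxo1 (13 and 35).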
